A study of Mus musculus with 20 samples.

Results

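Qtrt1, Qtrt2, Trdmt1 and Nsun2 are 4 of the 18054 genes in a table of counts from mouse hippocampus. They were chosen by name, as the subunits of the enzyme that makes queuosine tRNA and as methyltransferases that act on tRNA, and all 4 had enough reads to be tested. Each of 10 animals gave 1 library of ribosome footprints, the stretches of mRNA that ribosomes shield from RNase I, and 1 library of input RNA from the same cytoplasmic lysate. The animals were 3 Qtrt1-/- (KO) females, 3 wild-type (WT) females, 2 KO males and 2 WT males. KO females were 6 months and 21 days old, and WT females 6 months and 21 or 22 days. In each male genotype, animal 1 was 6 months and 18 days old and animal 2 was 5 months and 16 days old, so sex and age cannot be told apart. The sources used here do not give the strain or the part of Qtrt1 that the KO allele lacks. Each library is 1 animal with no pooling stated, and the p-values below measure the spread between these animals.

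Queuosine is a modified guanosine at the wobble position of the anticodon in the tRNAs for aspartate, asparagine, histidine and tyrosine. Mammals cannot make its base, queuine, and take it from diet and gut microbes. The tRNA-guanine transglycosylase is a pair of proteins: Qtrt1 carries the catalytic site that exchanges guanine for queuine, and Qtrt2 is its partner without catalysis of its own. Trdmt1 methylates a cytosine in the anticodon loop of the aspartate tRNA, a queuosine tRNA, and queuosine in that tRNA is known to stimulate the methylation. Nsun2 methylates cytosines in many tRNAs.

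The codons that queuosine tRNAs read are GAC and GAT for aspartate, AAC and AAT for asparagine, CAC and CAT for histidine, and TAC and TAT for tyrosine. Below, for each mRNA, is the run of 20 codons with the most of them, to show what such codons look like in the members themselves. Sequences are from the GENCODE M21 transcripts (GRCm38), 5′ to 3′, with codons read by queuosine tRNAs in capitals.
Qtrt1, codons 330 to 349: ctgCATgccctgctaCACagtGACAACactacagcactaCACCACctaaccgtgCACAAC
Qtrt2, codons 282 to 301: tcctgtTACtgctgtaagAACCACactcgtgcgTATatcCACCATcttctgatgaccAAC
Trdmt1, codons 32 to 51: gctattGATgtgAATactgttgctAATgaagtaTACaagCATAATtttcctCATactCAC
Nsun2, codons 199 to 218: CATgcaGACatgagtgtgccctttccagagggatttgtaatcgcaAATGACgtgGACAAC
The windows of Qtrt1 and Trdmt1 hold 8 such codons each, that of Qtrt2 holds 7 and that of Nsun2 holds 6. In the whole coding sequence the shares were close together, at 12.9% for Qtrt1, 13.3% for Qtrt2, 13.0% for Trdmt1 and 13.7% for Nsun2, against a median of 13.6% over 21531 genes. The members differed more in which of each codon pair they use. Of these codons, 37.0% ended in C in Trdmt1 and 44.2% in Nsun2, against 58.7% in Qtrt2, 63.5% in Qtrt1 and a median of 57.4% over all genes. The GC content of the coding sequence lay at 43.6% in Trdmt1, 49.4% in Qtrt2, 50.5% in Nsun2 and 58.4% in Qtrt1.

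In RefSeq (GRCm38.p6), Qtrt1 lies at chr9:21411801-21420279, Qtrt2 at chr16:43861407-43889797, Trdmt1 at chr2:13504879-13544797 and Nsun2 at chr13:69612016-69635780. In GENCODE M21 the Qtrt1, Qtrt2, Trdmt1 and Nsun2 transcripts used here have 10, 8, 11 and 19 exons. Nsun2 spans chr13:69533746-69635780 in GENCODE M21, a longer stretch than its RefSeq locus. Over all its transcripts there, exons share 469 bases with Gm17108 and 165 bases with Tent4a, both on the other strand. Whether the shared bases lie within the RefSeq locus is not given here. The labels name no strand-specific counting, so reads in those bases cannot be assigned to either strand. No exon bases of the other 3 members are shared with another gene.

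Footprint libraries held 5357812 to 15517982 counts and input libraries 9000662 to 13637370, and 13143 and 14164 genes were tested in them. Hippocampal neuron markers were detected in every library, with 0 libraries at 0 for each of the 9 genes. Levels are given as CPM, read counts scaled to library size. The mean log2 CPM of these 9 markers in input RNA ran from 5.65 to 5.78 in KO females and was 4.86, 5.72 and 4.78 in WT females 1, 2 and 3, so WT females 1 and 3 stood low. Markers of neighbouring tissue and other cell types also varied among females. The mean log2 CPM of 12 choroid plexus markers in footprints ran from 4.78 to 6.47 in KO females and from 2.33 to 5.74 in WT females, against 6.13 to 6.50 in KO males and 6.21 to 6.42 in WT males. For 10 striatum markers it ran from 4.02 to 5.60 in KO females and from 5.16 to 6.53 in WT females, and from 3.97 to 4.24 in KO males and 3.89 to 4.32 in WT males. Of these 22 markers, 0 had a library at 0. For 8 meningeal fibroblast markers the footprint level was 5.01 to 5.34 in KO females and 4.04 to 4.56 in WT females, and the input level 4.27 to 4.67 in KO females and 3.61 to 4.19 in WT females, with no overlap in either assay. For 5 astrocyte markers the footprint level was 7.89 to 7.95 in KO females and 7.65 to 7.77 in WT females, with no overlap. Their input levels overlapped, at 7.17 to 7.27 in KO females and 7.07 to 7.19 in WT females. Microglia, oligodendrocyte and endothelial marker levels overlapped between female genotypes in footprints and in input RNA. The part of these markers in the results was not tested, but results that change when the females with the highest striatum level (KO 2, WT 1 and 3) or the lowest choroid plexus level (WT 1 and 2) are left out are given with that value.

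To set genes side by side, levels were divided by coding length, although input reads can also lie in untranslated regions and the sources used here do not give the length that was counted. In CPM per kb of coding sequence over 5 animals a genotype (mean ± SD), Nsun2 footprints were at 28.7 ± 1.24 in KO and 28.6 ± 3.39 in WT. Qtrt2 footprints were at 5.98 ± 1.35 in KO and 5.53 ± 0.633 in WT, and Qtrt1 footprints at 0.490 ± 0.351 in KO and 4.89 ± 1.33 in WT. Trdmt1 footprints were at 2.38 ± 0.887 in KO and 1.99 ± 0.543 in WT. In WT the order was therefore Nsun2, then Qtrt2 and Qtrt1, whose animals overlap, then Trdmt1, whose highest WT animal (2.84) lay below the lowest of Qtrt1 (3.52). In KO Qtrt1 came last, with its highest animal (1.06) below the lowest of Trdmt1 (1.36). On this scale input RNA had the same order of genes. Nsun2 was at 61.8 ± 1.05 in KO and 66.4 ± 3.29 in WT, and Qtrt2 at 6.93 ± 1.09 in KO and 6.53 ± 0.973 in WT. Qtrt1 was at 1.93 ± 0.311 in KO and 5.46 ± 0.435 in WT, and Trdmt1 at 3.57 ± 0.695 in KO and 2.98 ± 0.373 in WT. Divided by the length of the whole transcript, a choice made after the data were seen, WT input RNA of Qtrt1 (5.01 ± 0.400 CPM per kb) lay above that of Qtrt2 (2.38 ± 0.355) with no overlap of animals, so their order depends on the length used. Nsun2 (53.2 ± 2.63) stayed first and Trdmt1 (0.980 ± 0.123) last in WT. In KO the mean of Trdmt1 (1.17 ± 0.228) then came below that of Qtrt1 (1.77 ± 0.286). Their KO animals overlapped, with Trdmt1 up to 1.46 and Qtrt1 from 1.37. Among 13067 genes ranked by CPM in WT, Qtrt1 and Qtrt2 stood side by side, at the 21.9 and 21.7 percentiles of footprints and the 19 and 19.3 percentiles of input RNA. Trdmt1 stood at 9.87 and 11.5, and Nsun2 at 75.8 and 88.2.

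**Figure D1:**
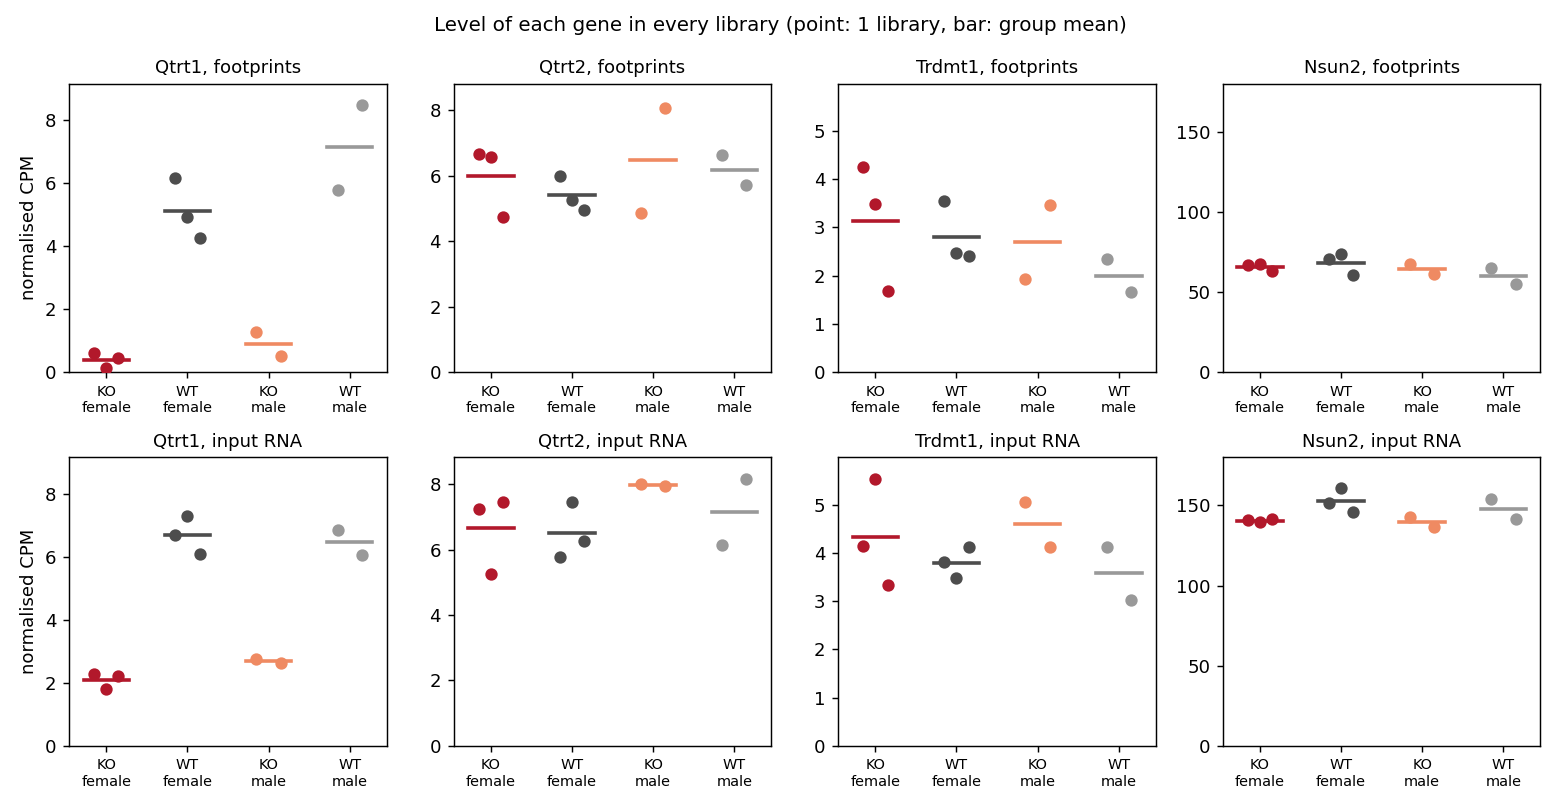
Normalised CPM (vertical axis) of each gene in footprints (upper row) and input RNA (lower row), by genotype and sex (KO, Qtrt1-/-, and WT, wild type). Points are libraries and bars group means. All KO points of Qtrt1 lie below all WT points in every panel (footprints 0.129 to 1.28 in KO, 4.26 to 8.47 in WT), while KO and WT points of Qtrt2 overlap in every panel.

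Qtrt1, the catalytic subunit, fell in KO animals in both assays over both sexes, and its KO level relative to WT was 7.73% in female footprints and 31.3% in female input RNA. Its footprints were 0.607, 0.129 and 0.450 CPM in KO females and 6.16, 4.92 and 4.26 CPM in WT females. In males they were 1.28 and 0.495 CPM in KO and 5.79 and 8.47 CPM in WT. The raw counts behind these values were 5, 1 and 4 in KO females against 40, 28 and 30 in WT females, and 10 and 3 in KO males against 94 and 46 in WT males. No KO animal reached the lowest WT animal of its sex. Qtrt1 is the gene that the genotype label names as knocked out, so a lower level goes with the design. Counts from tissue as a whole do not by themselves tell fewer cells that express a gene from less RNA per cell. The KO mean was 7.73% of the WT mean in females, where single KO animals ran from 2.52% to 11.9%, and 12.5% in males, where they were at 6.95% and 18.0%.

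By edgeR's quasi-likelihood test the log2 fold change of Qtrt1 footprints, KO over WT, was -3.62 ± 0.44 in females (SE, adjusted p = 0.00543). Of all genes tested there, 7.06% (928 genes) were called at an adjusted p under 0.05, and 4.25% were called lower. That background rested on single animals: edgeR called 37, 218 and 555 genes without KO female 1, 2 or 3, 81 and 559 without WT female 1 or 3, and 1521 and 1545 without WT male 1 or 2. In males it was -2.88 ± 0.46 with an adjusted p of 0.23 by the same edgeR test, which called 0 genes of 13143 in males, with 562 (4.28%) at an unadjusted p under 0.05 and 1 gene by DESeq2. That gene was Qtrt1, at -2.92 with an adjusted p of 0.019 by DESeq2. Over both sexes edgeR gave -3.25 ± 0.32 (adjusted p = 0.00102), lower in 5 of 5 KO animals, and Qtrt1 was the single gene called, 0.00761% of those tested. That count of genes rested on the setting: DESeq2 called 509, edgeR called 1453 without WT male 1, 212 without WT female 2, 33 without WT female 3, 24 without KO male 1 and 22 without both WT females of low choroid plexus level, and the call of Qtrt1 held in each of these edgeR fits. Without the 3 females of high striatum level, the female value was -3.19 with an edgeR adjusted p of 0.165.

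Input RNA of Qtrt1 was read at a higher share of the WT level. It was 2.27, 1.8 and 2.22 CPM in KO females and 6.70, 7.29 and 6.09 CPM in WT females. In males it was 2.76 and 2.61 CPM in KO and 6.84 and 6.06 CPM in WT. KO animals again lay below every WT animal of their sex, with raw counts of 24 to 29 in KO and 66 to 88 in WT. The KO mean was 31.3% of the WT mean in females (26.8% to 34% over animals) and 41.7% in males (40.5% and 42.9%). Where along the gene the remaining reads lie cannot be seen in counts per gene.

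The fold change of Qtrt1 input RNA was -1.67 ± 0.18 in females (edgeR adjusted p = 0.00335), where 3.48% of genes (493) were called and 2.73% called lower. Here edgeR called 4, 162 and 213 genes without KO female 1, 2 or 3, 46, 1030 and 226 without WT female 1, 2 or 3, and 251 and 252 without KO male 1 or 2. It was -1.26 ± 0.22 in males (edgeR adjusted p = 0.373), where edgeR called 0 genes, DESeq2 called 3 and 1246 (8.8%) had an unadjusted p under 0.05. Over both sexes it was -1.47 ± 0.14 (edgeR adjusted p = 0.00356), with 0.734% of genes (104) called and 0.642% called lower. That count was 699 without WT female 2, 574 without WT male 1 and 1 to 7 without any other single animal. Ranked by p over both sexes, Qtrt1 stood in place 1 in footprints and in place 1 in input RNA. Ranked by the size of the fold change it was in place 2 of 13143 in footprints and 38 of 14164 in input RNA. Without the 3 females of high striatum level the input call was lost, at -1.70 in females (edgeR adjusted p = 0.136) and -1.48 over both sexes (edgeR adjusted p = 0.106). The female minus male difference was -0.74 ± 0.70 in footprints and -0.41 ± 0.29 in input RNA (edgeR adjusted p = 0.823 and 0.675). In both assays edgeR called 0 genes for that difference, with 1109 (8.44%) and 1339 (9.45%) at an unadjusted p under 0.05, while DESeq2 called 24 and 41. A sex difference in the loss of Qtrt1 was thus not detected, nor shown to be absent.

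The ratio of footprint to input level in each animal is the translational efficiency, which for Qtrt1 passed the threshold only in some settings. The ratio was 0.267, 0.0718 and 0.202 in KO females and 0.919, 0.675 and 0.699 in WT females. In males it was 0.464 and 0.190 in KO and 0.845 and 1.4 in WT. All 5 KO ratios lay below all 5 WT ratios, with means of 0.239 ± 0.144 in KO and 0.907 ± 0.293 in WT (SD, n = 5 each). The KO ratios rest on 5, 1 and 4 footprint counts in females and 10 and 3 in males. The part of Qtrt1 that the KO reads cover is not known, so in KO the ratio compares read levels only. The log2 difference was -1.77 ± 0.34 in the edgeR interaction of assay and genotype (unadjusted p = 5.06e-05, adjusted p = 0.0961). Keeping each animal's footprint and input libraries together as a block gave -1.78 ± 0.36 and an edgeR adjusted p of 0.0218, past the threshold. Without the block edgeR called 0 of 14146 genes, with 1458 (10.3%) at an unadjusted p under 0.05 and 50 called by DESeq2, and with it 114. Leaving out WT male 1 also brought the call of Qtrt1, among 167 genes, at -1.95 with an edgeR adjusted p of 0.0262.

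**Figure D2:**
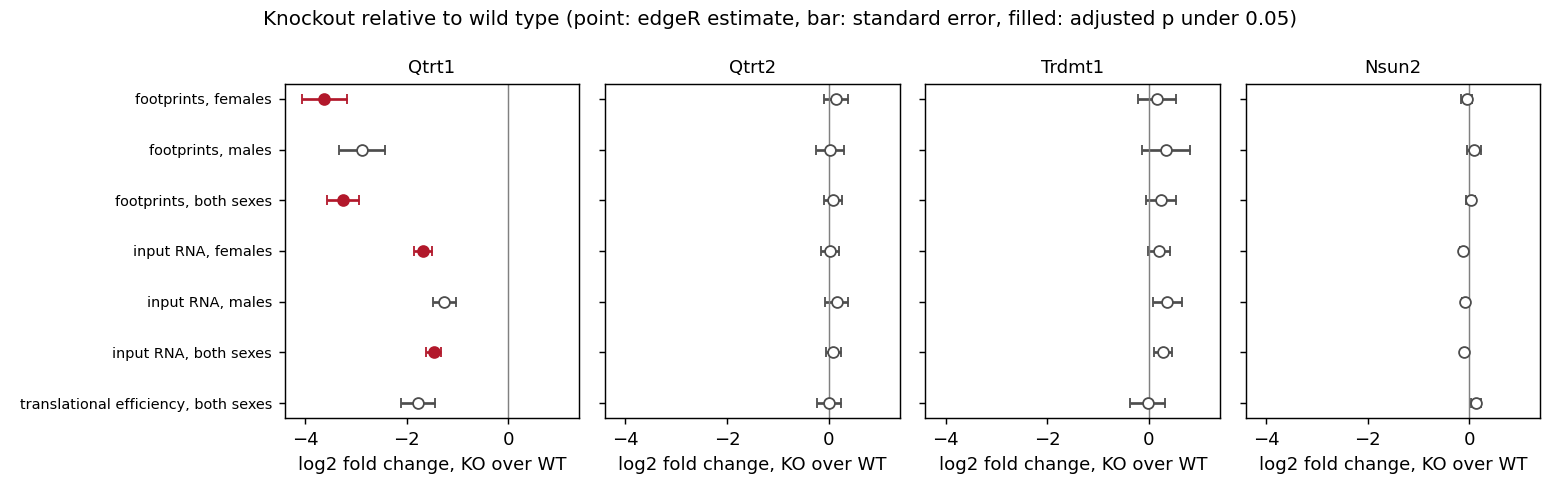
Log2 fold change, KO over WT, of each gene (horizontal axis) in 7 comparisons, with bars of 1 SE from edgeR. Filled points have an adjusted p under 0.05. Qtrt1 runs from -3.62 in female footprints to -1.26 in male input RNA, and the other 3 genes stay between -0.12 and 0.36.

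A gene next to Qtrt1 was read as a check of its surroundings. Dnm2, a dynamin gene at chr9:21424908-21507759, differed by 0.06 ± 0.09 in footprints and 0.09 ± 0.10 in input RNA over both sexes (edgeR adjusted p = 0.733 and 0.694). It passed the threshold in none of the 11 comparisons.

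Qtrt2, the partner subunit, did not differ detectably between genotypes in either assay. Its footprints were 6.67, 6.58 and 4.73 CPM in KO females and 6.00, 5.27 and 4.96 CPM in WT females. In males they were 4.88 and 8.09 CPM in KO and 6.65 and 5.71 CPM in WT. KO and WT animals overlapped in both sexes. The log2 fold change of Qtrt2 footprints was 0.14 ± 0.24 in females, 0.03 ± 0.28 in males and 0.09 ± 0.18 over both sexes (edgeR adjusted p = 0.747, 0.995 and 0.83).

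Qtrt2 input RNA was 7.23, 5.24 and 7.47 CPM in KO females and 5.78, 7.46 and 6.25 CPM in WT females. In males it was 8.01 and 7.94 CPM in KO and 6.14 and 8.17 CPM in WT. Here too the groups overlapped, and the fold change over both sexes was 0.09 ± 0.14 (edgeR adjusted p = 0.784). The efficiency of Qtrt2 averaged 0.888 ± 0.272 in KO and 0.864 ± 0.184 in WT (SD, n = 5 each), a log2 difference of 0.00 ± 0.23 in the interaction test (edgeR adjusted p = 1). With 30 to 108 footprints per library, a change in Qtrt2 smaller than this spread would not have been seen.

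Trdmt1, the methyltransferase of the aspartate tRNA, was the least read of the 4 in WT, with 9 to 38 footprint counts and 33 to 50 input counts per WT library. Its footprints were 4.25, 3.48 and 1.69 CPM in KO females and 3.54, 2.46 and 2.41 CPM in WT females. In males they were 1.92 and 3.47 CPM in KO and 2.34 and 1.66 CPM in WT. The groups overlapped in both sexes, since KO female 3 lay below every WT female and KO male 1 lay between the WT males. The log2 fold change over both sexes was 0.24 ± 0.30 in footprints (edgeR adjusted p = 0.682).

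Trdmt1 input RNA was 4.14, 5.54 and 3.34 CPM in KO females and 3.81, 3.48 and 4.12 CPM in WT females. In males it was 5.05 and 4.13 CPM in KO and 4.12 and 3.03 CPM in WT. Both KO males lay above both WT males, though the nearest pair was almost level, and the females overlapped. With so few males the order only describes these Trdmt1 values, since the share of all genes that show it is not given. The fold change was 0.19 ± 0.22 in females, 0.36 ± 0.28 in males and 0.28 ± 0.18 over both sexes (edgeR adjusted p = 0.683, 0.738 and 0.452). Its efficiency averaged 0.676 ± 0.258 in KO and 0.668 ± 0.160 in WT (SD, n = 5 each), with a log2 difference of -0.03 ± 0.35 (edgeR adjusted p = 1).

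Nsun2 was read most deeply, with 298 to 1056 footprint counts and 1256 to 1993 input counts per library, and had the smallest standard errors of the 4. Its footprints were 66.6, 67.5 and 63.1 CPM in KO females and 70.7, 74.0 and 60.3 CPM in WT females. In males they were 67.6 and 61.4 CPM in KO and 65.0 and 54.9 CPM in WT. KO and WT animals overlapped, and the fold change was -0.05 ± 0.11 in females, 0.10 ± 0.14 in males and 0.02 ± 0.09 over both sexes (edgeR adjusted p = 0.804, 0.963 and 0.914).

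Nsun2 input RNA was 141, 139 and 142 CPM in KO females and 152, 161 and 146 CPM in WT females. In males it was 143 and 137 CPM in KO and 154 and 142 CPM in WT. Each KO female lay below each WT female, while the males overlapped. How many of all genes separate in this way is not given here, so the order only describes these Nsun2 values. The KO mean was 92.0% of the WT mean in females and 94.5% in males, and the fold change was -0.12 ± 0.06 in females and -0.10 ± 0.05 over both sexes. Neither passed the correction over all genes (edgeR unadjusted p = 0.0656 and 0.0536, adjusted p = 0.284 and 0.29).

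Nsun2 also had the lowest efficiency of the 4 in WT. Its footprint to input ratio averaged 0.465 ± 0.0166 in KO and 0.430 ± 0.0329 in WT (SD, n = 5 each), and animals of the genotypes overlapped. The log2 difference was 0.14 ± 0.10 (edgeR adjusted p = 0.67). On the log2 scale the WT mean of footprints minus input was -1.22 for Nsun2, at the 16.0 percentile of 13067 genes, -0.53 for Trdmt1, -0.21 for Qtrt2 and -0.17 for Qtrt1, against a median of -0.15 over those genes.

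**Figure D3:**
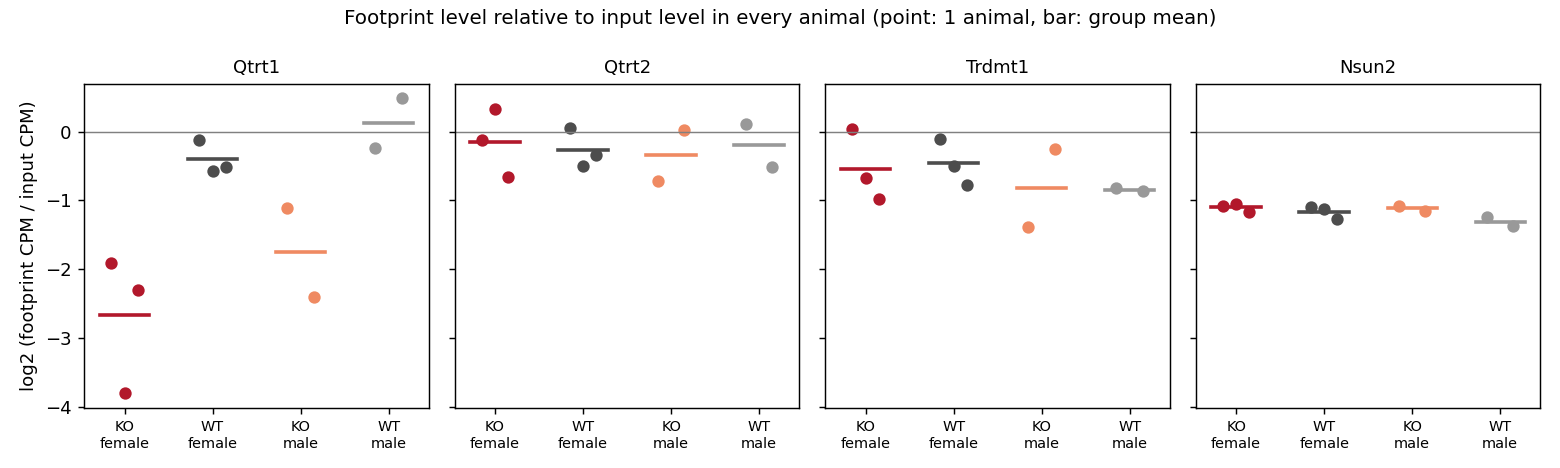
Log2 ratio of footprint CPM to input CPM (vertical axis) in each animal, by genotype and sex. Points are animals and bars group means. The Qtrt1 ratio of all 5 KO animals lies below that of all 5 WT animals, and Nsun2 has the tightest points, with a highest ratio of 0.484.

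None of the 4 members differed by sex among WT animals at an adjusted p under 0.05, where edgeR called 16.5% of genes (2171) in footprints and 14.2% (2016) in input RNA. These counts were 954 and 1148 without WT female 1, 1250 and 1308 without WT male 2, and 1030 in input RNA without WT male 1. They fell as well without the 3 females of high striatum level and without both WT females of low choroid plexus level. Each of those fits leaves 1 WT female. The female over male log2 fold change in WT footprints was -0.44 ± 0.33 for Qtrt1, -0.21 ± 0.26 for Qtrt2, 0.42 ± 0.43 for Trdmt1 and 0.18 ± 0.13 for Nsun2 (edgeR adjusted p = 0.38, 0.616, 0.532 and 0.353). In WT input RNA the values for Qtrt1, Qtrt2, Trdmt1 and Nsun2 were 0.05 ± 0.18, -0.14 ± 0.20, 0.09 ± 0.26 and 0.05 ± 0.07 (edgeR adjusted p = 0.871, 0.688, 0.855 and 0.673). The female minus male difference of the KO effect in footprints was 0.12 ± 0.37 for Qtrt2, -0.18 ± 0.60 for Trdmt1 and -0.15 ± 0.18 for Nsun2 (edgeR adjusted p = 0.963, 0.963 and 0.855).

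The deposited codon tables list, for each footprint library, the codons of an mRNA that carried a footprint. They hold 1071976 to 3032432 footprints on 7126 to 8774 mRNAs per library. Neither Qtrt1 nor Nsun2 is listed there under an identifier of GENCODE M21, so the position of the footprints that remain on Qtrt1 in KO animals cannot be read. Qtrt2 is listed with 1 footprint in KO female 1 and 1 in WT female 2, on a transcript annotated as a retained intron. Counts per gene held 30 to 108 Qtrt2 footprints per library, so few of them are listed by codon. Trdmt1 is listed in all 10 libraries, with 53 footprints on 14 codons, and its listed codons match the GENCODE transcript in 36 of 36 entries once positions are counted from 1 at the start codon.

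All 53 listed Trdmt1 footprints lay between codons 323 and 406 of 415, most of them between codons 380 and 400. They are only part of the footprints counted for Trdmt1 as a gene. Those summed to 77 in KO females, 54 in WT females, 36 in KO males and 47 in WT males. Of the listed footprints, KO libraries held 5, 8 and 6 in females and 3 and 10 in males. WT libraries held 3, 4 and 4 in females and 9 and 1 in males. The sums were 32 in KO and 21 in WT, and the libraries overlap. This stretch is shown because 46 of the 53 footprints fall in it, with codons that carried a footprint in capitals.
Trdmt1, codons 380 to 400: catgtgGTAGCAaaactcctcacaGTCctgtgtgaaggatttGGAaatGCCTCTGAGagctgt
The GTA at codon 382 held 10 footprints in 5 of 5 KO libraries and 4 footprints in 1 of 5 WT libraries. GAG at codon 398 held 5 in KO and 5 in WT, GGA at codon 394 held 4 in KO and 5 in WT, and GCC at codon 396 held 4 in KO and 4 in WT. Of the 14 codons, AAT at codon 375 and CAC at codon 401 are read by queuosine tRNAs, each with 1 footprint in WT. Counts per codon are too few for a test, and why the listed footprints are limited to this end of the coding sequence was not tested.

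The wider pathway was read from 5 lists that hold 21 genes. In the queuosine pathway list, 0 of 4 genes passed the edgeR threshold in any of the 11 comparisons, where 3.79% of all tests were called. At an unadjusted p under 0.05 there were 2 of the list's 44 tests (4.55%), both of Gtdc1, against 16.9% of all tests. The 4 genes are 2210016F16Rik, the mouse counterpart of the enzyme that frees queuine from queuosine in human cells, Gtdc1 and B3gntl1, which add sugars to queuosine of the aspartate and tyrosine tRNAs, and the queuine transporter Slc35f2. The median log2 fold change over both sexes was 0.04 in footprints and 0.08 in input RNA, against 0.00 and 0.01 over all genes. Gtdc1 input RNA differed by -0.28 ± 0.09 in KO against WT females (edgeR adjusted p = 0.102). It differed by 0.09 ± 0.11 in males and -0.09 ± 0.07 over both sexes (edgeR adjusted p = 0.826 and 0.522). Over both sexes B3gntl1 had the list's lowest p, in input RNA, which was 4.96, 5.24 and 5.24 CPM in KO females and 3.50, 5.88 and 3.21 CPM in WT females, and 4.48 and 6.09 CPM in KO males and 4.74 and 2.20 CPM in WT males. The groups overlapped, and its fold change over both sexes was 0.45 ± 0.23 (edgeR unadjusted p = 0.0762).

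Of the 4 cytosolic synthetases that charge the queuosine tRNAs, Dars (aspartate) rose in female footprints and Nars (asparagine), Hars (histidine) and Yars (tyrosine) passed in no comparison. The median of the list over both sexes was 0.05 in footprints. Dars footprints were 232, 226 and 210 CPM in KO females and 168, 165 and 161 CPM in WT females. In males they were 142 and 180 CPM in KO and 141 and 122 CPM in WT. KO lay above WT in both sexes, although the lower KO male was level with the higher WT male. The fold change was 0.44 ± 0.11 in females (edgeR adjusted p = 0.0312), where 2.81% of genes were called higher. It was 0.29 ± 0.13 in males and 0.36 ± 0.09 over both sexes (edgeR adjusted p = 0.963 and 0.0629). Dars input RNA over both sexes differed by 0.02 ± 0.06 (edgeR adjusted p = 0.873), and the efficiency by 0.35 ± 0.11 (edgeR adjusted p = 0.283, and 0.0524 with the animal as a block). Some of the tissue marker levels given above move with genotype among females. Without WT females 1 and 2 the Dars value was 0.49 with an adjusted p of 0.21, and without the 3 females of high striatum level 0.43 with an adjusted p of 0.611, both by edgeR. The call was also lost without KO female 1 (0.41, edgeR adjusted p = 0.131), KO female 2 (0.43, 0.11), WT female 1 (0.45, 0.103), WT female 2 (0.44, 0.0582) or WT female 3 (0.42, 0.0784).

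In the remaining 3 lists 0 of 13 genes passed the edgeR threshold in the 9 comparisons that involve genotype, where 1.24% of all tests were called. At an unadjusted p under 0.05 there were 11 of their 113 tests (9.73%), of 7 genes, against 13.8% of all tests. By list the share was 8.33% for mitochondrial synthetases, 7.41% for relatives of Nsun2 and 17.4% (4 of 23 tests) for DNA methyltransferases. Their median log2 fold changes over both sexes in footprints were 0.05 for 4 mitochondrial synthetases, -0.10 for 6 relatives of Nsun2 and -0.30 for the 2 of 3 DNA methyltransferases with enough footprints to be tested. Of the mitochondrial synthetases, Yars2, for tyrosine, had the lowest p over both sexes, in input RNA, at 17.9, 18.2 and 19.5 CPM in KO females and 14.8, 15.4 and 15.9 CPM in WT females. KO and WT females did not overlap, but males did, at 15.3 and 16.8 CPM in KO and 15.9 and 14.5 CPM in WT, and the change over both sexes was 0.17 ± 0.08 (edgeR adjusted p = 0.274). Among the relatives of Nsun2 in the NOL1/NOP2/SUN family, Nop2, a methyltransferase of ribosomal RNA, had the lowest p over both sexes, in efficiency, at -0.27 ± 0.11 (edgeR adjusted p = 0.419), and also the lowest in footprints. Its footprints were 33.1, 35.7 and 40.1 CPM in KO females and 41.7, 44.8 and 43.7 CPM in WT females, and 38.5 and 35.3 CPM in KO males and 38.2 and 50.8 CPM in WT males. The females did not overlap and the males did, with a footprint fold change over both sexes of -0.25 ± 0.10 (edgeR adjusted p = 0.197). Among females alone the edgeR adjusted p was 0.143 for Yars2 input RNA and 0.236 for Nop2 footprints. Yars2 and Nop2 were named for the lowest p of their lists, which makes separated groups likelier. The share of all genes whose KO and WT females separate is not given here.

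The DNA methyltransferases, to which Trdmt1 is related in sequence, passed only in the comparison of sexes in WT. Dnmt1, which copies DNA methylation after replication, had footprints of 141, 134 and 130 CPM in WT females and 82.2 and 81.9 CPM in WT males, a female over male log2 fold change of 0.72 ± 0.11 (edgeR adjusted p = 0.0012). KO animals gave 113, 103 and 114 CPM in females and 76.2 and 77.2 CPM in males. KO over WT, the Dnmt1 footprint fold change was -0.30 ± 0.09 in females and -0.10 ± 0.11 in males (edgeR adjusted p = 0.0671 and 0.963). In WT input RNA, where 14.2% of genes were called against 16.5% in footprints, the Dnmt1 sex difference was 0.55 ± 0.07 (edgeR adjusted p = 0.00109). Striatum marker levels, 5.16 to 6.53 in WT females and 3.89 to 4.32 in WT males on the log2 CPM scale, move with this difference. In footprints every other marker list also separated the WT sexes, here with females first and males second. Choroid plexus levels were 2.33 to 5.74 and 6.21 to 6.42, and meningeal fibroblast levels 4.04 to 4.56 and 5.15 to 5.21. Astrocyte levels were 7.65 to 7.77 and 7.88 to 7.93, and hippocampal neuron levels 5.20 to 6.00 and 6.02 to 6.23. Oligodendrocyte levels were 7.83 to 8.45 and 8.50 to 8.65. Microglia (5.59 to 5.71 and 5.49 to 5.53) and endothelial levels (4.08 to 4.14 and 3.985 to 3.987) were higher in females. Among KO animals striatum levels overlapped, at 4.02 to 5.60 in females and 3.97 to 4.24 in males. The part of these markers in the Dnmt1 sex difference was not tested. Without the 3 females of high striatum level the Dnmt1 footprint difference was 0.71 with an edgeR adjusted p of 0.0549, and without WT females 1 and 2, of low choroid plexus level, 0.64 with 0.0466. Trdmt1 itself differed by 0.42 ± 0.43 in the same comparison of footprints.

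**Figure D4:**
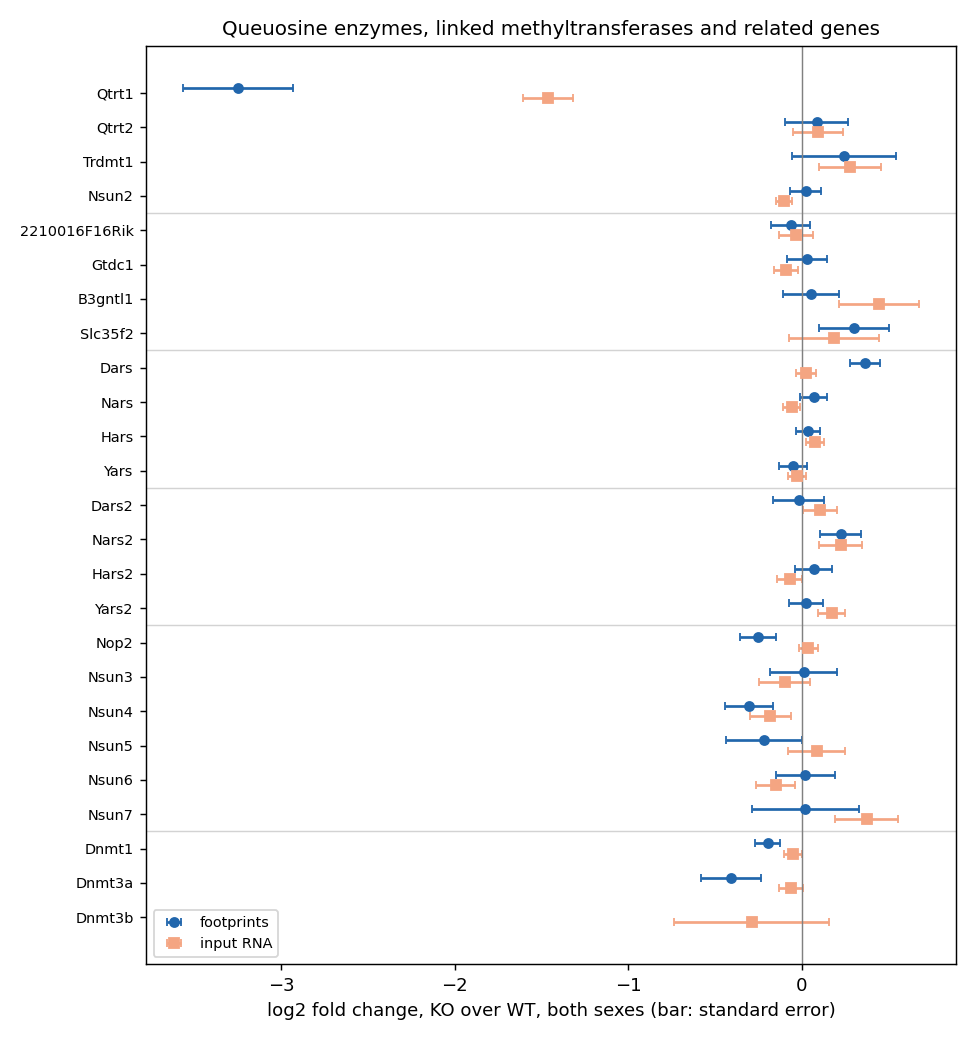
Log2 fold change, KO over WT, over both sexes (horizontal axis) for the 4 members (top block) and the 21 genes of the 5 lists, in footprints (circles) and input RNA (squares), with bars of 1 SE from edgeR. Qtrt1 lies at -3.25 and -1.47, and among the others Dars footprints lie at 0.36 with input RNA at 0.02.

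Profiles over the 20 libraries were compared by the root mean square (RMS) difference of log2 CPM, after each gene was centred within footprints and within input RNA, over 13066 other genes. The libraries share genotype, sex and dissection, so nearness is a description. Nearest to Qtrt1 were Pou3f2, a neuronal transcription factor, at 0.81, and Igfbp6, an insulin-like growth factor binding protein, at 0.82, against an RMS of Qtrt1 about its own means of 1.23. Nearest to Qtrt2 were Hacd2 at 0.15 and Jkamp at 0.16, against an own RMS of 0.22, and to Trdmt1 Zfp952 at 0.22 and Vcan at 0.24, against 0.34. Nsun2 had D6Wsu163e at 0.068 and Tnik at 0.078, against 0.096. No member was the nearest gene of another.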

How the data were processed

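The authors deposited 1 table of raw whole-number counts per gene for 20 libraries, without normalization, and per footprint library a table of footprint counts per codon. Per the submitters' processing notes, the tools were SAMtools 0.1.19, Trimmomatic 0.39, cutadapt 1.8.1 and Bowtie in versions 1.2.2 and 1.0.0. The sources used here do not name the counting program or the genome build.

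The 4 members and the gene lists were chosen with earlier results of these data known. Besides the members, the text names list genes called in any of 11 comparisons, otherwise the list's gene of lowest p in the knockout comparisons of both sexes, the 2 nearest profiles per member and a neighbour of Qtrt1. Codons at the highest counts, and Gtdc1 for its fold change, were chosen after their values were seen. A gene that the rule covers is not reported here.

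Counts were fitted with edgeR 4.0.16 in R 4.3.3 (TMM, filterByExpr, quasi-likelihood F tests on group means, two-sided), with Benjamini-Hochberg adjustment over all genes tested and a threshold of 0.05. Libraries of an assay shared 1 estimate of spread, and efficiency was the interaction of assay and genotype over 20 libraries. CPM use TMM library sizes, and profiles use log2 CPM with a prior count of 2. DESeq2 1.42.0, limma 3.58.1 and Python 3.11.15 with matplotlib 3.10.9 were also used. The edgeR fits were tested on simulated data.

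Replicates differed by more than counting error (chi-square per degree of freedom 3.45 to 14.3). Footprint and input libraries of 1 animal share its number in the labels, and their deviations from group means correlated at 0.257 to 0.548, so efficiency was also fitted with the animal as a block, and the printed values are without it unless the block is named. Across genotypes, same-numbered males share an age, but the labels tie numbers to no litter or batch, so replicate numbers were not taken as pairs. Neither assay is stated to use molecular identifiers, so reads may repeat molecules.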

Additional observations from a re-analysis of the deposited data

How the results depend on the processing

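Of 910 values recomputed under alternatives, 52 changed sign, 12 lost a call and 4 gained one. For Qtrt1 in the 7 comparisons of KO with WT, 0 of 113 changed sign. Leaving out 1 animal at a time kept its calls in female footprints (-4.02 to -3.24), in both sexes footprints (-3.69 to -3.02), in female input RNA (-1.73 to -1.57) and in both sexes input RNA (-1.51 to -1.41). The male values ran from -3.76 to -2.42 in footprints and from -1.35 to -1.17 in input RNA without a call, and efficiency from -2.19 to -1.56, where 0 to 1 of the 4 members was called. Without the 3 females of highest striatum level, Qtrt1 lost its call in female footprints (-3.19), female input RNA (-1.70) and both sexes input RNA (-1.48), and 0 members were called in these comparisons. That fit leaves 1 WT female, taken to vary like animals of the remaining groups, as does the fit without both WT females of lowest choroid plexus level, and the cause was not tested. Over all genes, edgeR called 1 in female footprints without the 3 and 120 without the 2, against 928 with every animal, and 7 and 498 in female input RNA against 493. In male footprints Qtrt1 was called by DESeq2 (-2.92, 1 member) and with no filter on low counts (-2.87, edgeR adjusted p = 0.00526, 1 member). With the animal as a replicate block 1 member was called in efficiency (Qtrt1, -1.78). DESeq2 gave no adjusted p for Qtrt1 over both sexes, where its values were -3.30 in footprints, -1.47 in input RNA and -1.80 in efficiency. The share of the Trdmt1 footprints listed by codon in the closing division of the coding sequence was 100% with 3 divisions and 98.1% with 5.

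Values near 0 changed sign, each uncalled before and after. Without the 3 females of highest striatum level these were Nsun2 in footprints of both sexes (-0.0397), Qtrt2 in female input RNA (-0.0272), Trdmt1 efficiency (0.0755) and, for sex in WT input RNA, Qtrt2 (0.0697) and Trdmt1 (-0.0334). Without both WT females of lowest choroid plexus level they were Nsun2 in female footprints (0.141), the female minus male footprint differences of Trdmt1 (0.0425) and Nsun2 (0.036), Trdmt1 efficiency (0.142), and sex in WT for Nsun2 footprints (-0.0173) and for Qtrt1 (-0.0828) and Nsun2 (-0.0196) in input RNA. Qtrt2 efficiency was -0.00421 with no filter.

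Leaving out 1 animal at a time gave these ranges for results that changed sign. In female footprints Trdmt1 ran from -0.135 to 0.468 and Nsun2 from -0.138 to 0.0063. In male footprints Qtrt2 ran from -0.36 to 0.375, Trdmt1 from -0.116 to 0.733 and Nsun2 from -0.00936 to 0.244. In footprints of both sexes Qtrt2 ran from -0.108 to 0.26 and Nsun2 from -0.0316 to 0.0963. For the female minus male difference in footprints, Qtrt1 ran from -1.20 to 0.139, Qtrt2 from -0.229 to 0.503 and Trdmt1 from -0.578 to 0.269. In input RNA Qtrt2 ran from -0.0614 to 0.182 in females and -0.0337 to 0.371 in males, and Trdmt1 from -0.0208 to 0.352 in females. For efficiency Qtrt2 ran from -0.195 to 0.186 and Trdmt1 from -0.32 to 0.254. For sex in WT input RNA, Qtrt1 ran from -0.036 to 0.146, Qtrt2 from -0.328 to 0.0757, Trdmt1 from -0.121 to 0.329 and Nsun2 from -0.0158 to 0.112.

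Replicate numbers were not taken to pair KO with WT, although same-numbered males share an age: deviations of same-numbered animals correlated at -0.241 to -0.117 in females and at -0.0893 in footprints and 0.0867 in input RNA of males. With the replicate number as a block, the Dars value in female footprints was 0.437 with an edgeR adjusted p of 0.0867, the Qtrt2 value in male footprints -0.00772, and 2 genes in place of 1 were called over both sexes in footprints. In males the block gave Qtrt1 -2.87 in footprints and -1.26 in input RNA, without a call, as before. With the animal as a block, Qtrt2 efficiency was -0.0298, and besides Qtrt1 no member or list gene changed its call. In input RNA of both sexes edgeR called 104 genes, against 0 to 699 with an animal or the marked females left out and 414 by DESeq2. A fit of only the groups compared gives nothing separate for comparisons that use all groups. With few counts, Trdmt1 and Qtrt1 in KO are limited by depth.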
